A study of Komagataella pastoris with 4 samples.

Results

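The genes described here are the 81 rows, of 5427 in a table of RNA-seq counts from the methylotrophic yeast Pichia pastoris, whose product description names actin, myosin, tropomyosin, septin, tubulin, microtubules, formin, endocytosis, eisosomes, kinesin, dynein, the Arp2/3 complex, profilin or cofilin. Rows that name the kinetochore, the spindle or chromatin were left out. The 4 strains, all histidine auxotrophs, spent 14 h in a methanol minimal medium and gave 1 library each. They were strains labelled as deleted for Mxr1 (a zinc-finger activator of methanol genes), for Gal83 (which anchors and targets the Snf1 kinase) and for Gcn5 (the catalytic histone acetyltransferase of SAGA), all 3 Zeocin-resistant, and GS115, labelled wild type, which carries no such resistance. Neither the number of clones nor of cultures behind a library is stated, so each comparison is between single libraries and covers no variation between cultures.

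In budding yeasts, branched actin made by the Arp2/3 complex builds cortical patches at sites of endocytosis, while formins spin unbranched actin into cables along which class V myosins carry cargo to the bud. A ring of septins marks the bud neck, where type II myosin and actin close the cell at division. Microtubules are polymers of alpha- and beta-tubulin pairs, folded with the help of cofactors and started from a complex that holds gamma-tubulin. Eisosomes are fixed furrows in the plasma membrane.

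The rule selects by words, and the descriptions show where it reaches past the cytoskeleton. It took 33 rows of actin and its assembly factors, 14 of myosins and their partners, 2 septins, 11 of tubulins and their folding and nucleating factors, 3 of microtubule-associated proteins and dyneins, 8 of endocytosis and eisosomes, and 10 others. No row of the table is described as a kinesin. Of the rows, 11 were marked by description alone as peripheral: 4 rows of the actin-like ATPase domain, a fold that chaperones and sugar kinases share with actin, 3 rows of nuclear actin-related complexes, a nuclear protein, a myosin-like protein of the nuclear envelope, and 2 accidental matches inside the words transforming and forming (gene308 and gene3062). Several myosin rows carry the names of animal muscle myosins, and whether such a row has a motor domain cannot be read from the table. The identifiers given here are those of the table.

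Total counts ran from 30582006 to 34646983 in the deletion libraries, against 48539082 in the wild type, and every selected row had at least 158 counts in each library. Levels are TMM-scaled CPM, counts relative to library size, and log2 ratios to the wild type carry an exact 95% counting interval in brackets. The CPM values are not divided by gene length, so they compare libraries and not genes. A row was called higher or lower when it was at least 2-fold from the wild type with an interval that excluded equality. The labels were checked on rows that could be the deleted genes by description. A histone acetyltransferase row (gene3103) had 3 counts in the Gcn5-deleted library, against 2570 in the wild type, and the row for a Snf1 beta-subunit (gene1360) had 8 counts in the Gal83-deleted library, against 5215. A different row, which is the one named GAL83 (gene161), had 5513 counts in the Gal83-deleted library, against 13620 in the wild type, so which of both rows is the deleted gene is read here only from the counts. No row is described as Mxr1, so that label was not checked and the library is called Mxr1-labelled. All 3 comparisons share the 1 wild-type library.

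Most of these genes stayed near the wild type in all 3 deletion libraries. Of the 81 rows, 50 (61.7%) lay within 2-fold across all 4 libraries, against 51.0% of all 5420 rows compared. In the Mxr1-labelled library 4 were higher and 7 lower, or 13.6% of the rows, beside 18.3% of all rows called in either direction (7.97% higher and 10.3% lower). In the Gal83-deleted library 5 were higher and 11 lower, or 19.8%, beside 21.6% of all rows (11.0% higher and 10.7% lower). In the Gcn5-deleted library 0 were higher and 1 lower, or 1.2%, beside 9.1% of all rows (4.06% higher and 5.04% lower). The median log2 ratio was 0.06, -0.01 and 0.11 in the Mxr1-labelled, Gal83-deleted and Gcn5-deleted libraries, against -0.01, 0.01 and -0.01 over all rows. As a whole the list was thus close to the table as a whole in the Mxr1-labelled and Gal83-deleted libraries. At 1.5-fold, 15 rows were higher and 15 lower in the Mxr1-labelled library (19.4% and 21.2% of all rows), 10 and 17 in the Gal83-deleted library (23.0% and 21.4%), and 8 and 6 in the Gcn5-deleted library (12.7% and 13.5%). At 4-fold, 1 row was higher and 3 lower in the Mxr1-labelled library (1.68% and 2.47% of all rows), 1 and 3 in the Gal83-deleted library (1.42% and 1.96%), and 0 and 0 in the Gcn5-deleted library (0.683% and 0.572%). With total counts in place of TMM the split was 2 higher and 13 lower in the Mxr1-labelled library. It was 8 higher and 10 lower in the Gal83-deleted library, and 0 higher and 4 lower in the Gcn5-deleted library. The share of all rows called with total counts was not counted, so these counts are not read as a lean of the list. The median of all rows moved too, to -0.36 in the Mxr1-labelled and 0.14 in the Gal83-deleted library.

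**Figure D1:**
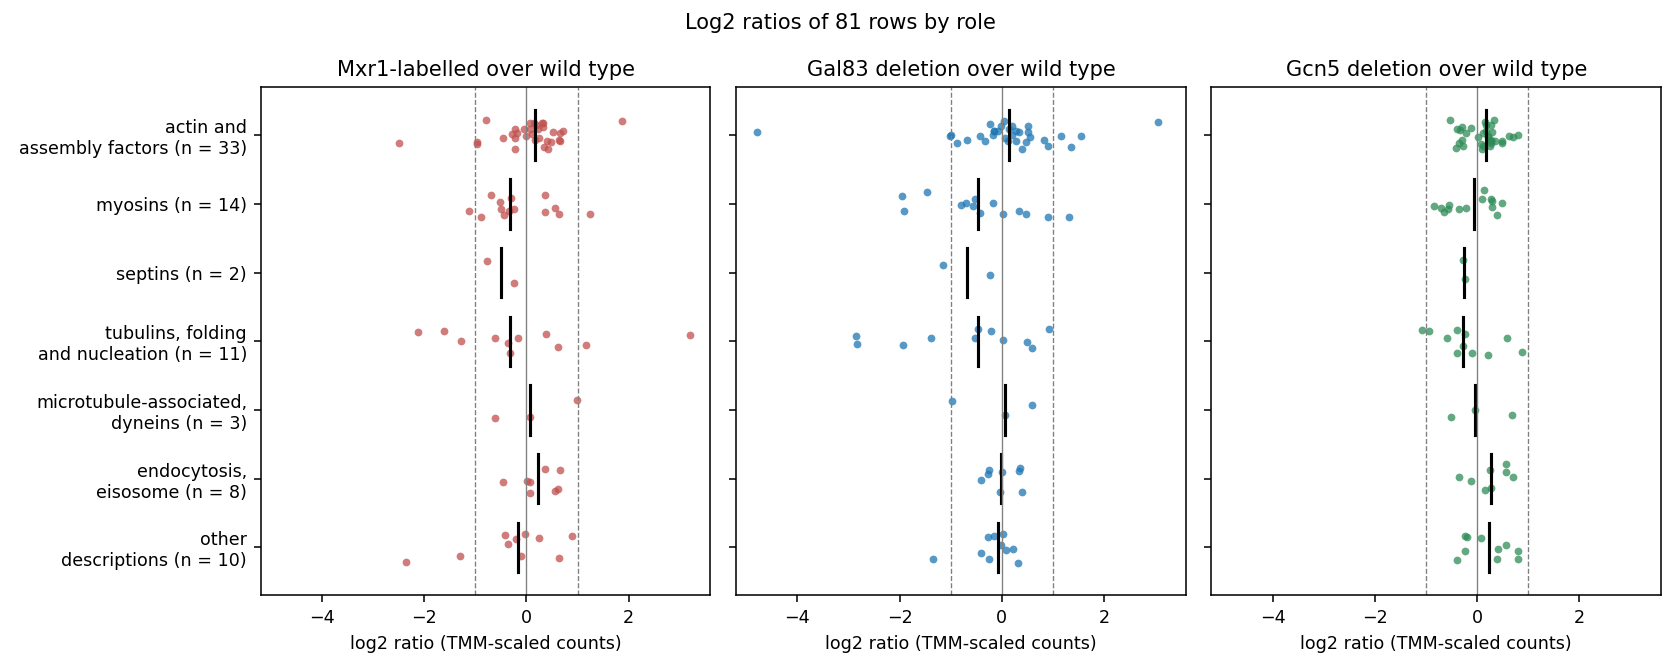
Log2 ratios of TMM-scaled counts to the wild type (x axis) for the 81 rows, grouped by role (y axis), with 1 panel for each deletion library. Each point is 1 row, black bars are group medians, and dashed lines mark 2-fold. Of the 11 tubulin-group rows, 5 passed the rule in the Mxr1-labelled library (2 higher, 3 lower), beside 18.3% of all rows. In the Gal83-deleted library 4 of them did (0 higher, 4 lower), beside 21.6% of all rows. With 11 rows, these counts are not read as a difference from those shares. The 8 rows of endocytosis and eisosomes stay inside the lines in all 3, which is not read as a difference from all rows.

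The alpha- and beta-tubulin rows moved in the Gal83-deleted library. All 3 were lower in the Gal83-deleted library, by 3.81-fold to 7.21-fold, beside 10.7% of all rows lower there. In the Mxr1-labelled library 2 of the 3 were lower, beside 10.3% of all rows. None of the 3 was called in the Gcn5-deleted library.

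Beta-tubulin (gene4817), the partner of alpha-tubulin in every microtubule subunit, had 76.5 CPM in the Mxr1-labelled, 32.7 in the Gal83-deleted and 269 in the Gcn5-deleted library, against 233 in the wild type. Its Mxr1-labelled value was 3.05-fold below the wild type (log2 -1.61 [-1.67 to -1.54]) and its Gal83-deleted value 7.12-fold below it (log2 -2.83 [-2.92 to -2.75]). In the Gcn5-deleted library its log2 ratio was 0.21 [0.17 to 0.25]. The next row of the table, a vacuolar permease of basic amino acids (gene4818), had log2 ratios of -1.28, -0.94 and -1.34 in the same order. It was lower in the Mxr1-labelled library, as beta-tubulin was, and also in the Gcn5-deleted library, where beta-tubulin was not. Whether reads were shared between these rows was not tested.

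The alpha-tubulin row gene2859 had 192 CPM in the Mxr1-labelled, 29.8 in the Gal83-deleted and 396 in the Gcn5-deleted library, against 215 in the wild type. The Gal83-deleted library alone was low for this row, at log2 -2.85 [-2.94 to -2.76], and the Gcn5-deleted library was the highest, at log2 0.88 [0.85 to 0.92], short of 2-fold over the wild type. From the lowest to the highest library the row spanned 3.73 log2 units, the widest span among the tubulin chains. The other alpha-tubulin row (gene4719) had 42.6, 27.3 and 96.5 CPM in the Mxr1-labelled, Gal83-deleted and Gcn5-deleted libraries, against 104 in the wild type. It was called lower in both the Mxr1-labelled library (log2 -1.29 [-1.38 to -1.20]) and the Gal83-deleted library (log2 -1.93 [-2.03 to -1.83]), and was at log2 -0.11 in the Gcn5-deleted library.

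The 2 alpha-tubulin rows therefore did not move in step. Of their joint counts, gene2859 held 81.8% in the Mxr1-labelled library (exact 95% binomial interval 80.9 to 82.7), 52.2% in the Gal83-deleted library (50.0 to 54.3) and 80.4% in the Gcn5-deleted library (79.7 to 81.1), against 67.4% in the wild type (66.6 to 68.1). The intervals of the Gal83-deleted and wild-type libraries lie apart from each other and from those of the other 2 libraries. Both rows carry the same description, and reads shared between like genes could have been split by the counting, so the values of either row alone are uncertain. These intervals cover counting error only.

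Gamma-tubulin (gene5268), which sits in the nucleating complex and not in the filament, went the other way. It had 46.5 CPM in the Mxr1-labelled, 57.6 in the Gal83-deleted and 14.4 in the Gcn5-deleted library, against 30.3 in the wild type. With TMM scaling it was the only 1 of the 81 rows called in the Gcn5-deleted library. It was 2.1-fold lower there (log2 -1.07 [-1.24 to -0.91]), with an interval that reaches below 2-fold. Scaling by total counts added gene587, gene843 and gene5280 as lower in that library. In the Mxr1-labelled and Gal83-deleted libraries the log2 ratios of gamma-tubulin were 0.62 and 0.93. Its Gal83-deleted value was 1.06 with total counts and was then called higher. The neighbouring row, an aspartate aminotransferase-like protein (gene5269), had log2 ratios of 3.31, 1.62 and -2.92 in the same order of libraries, with the same signs as gamma-tubulin. Strand use in the counting is not stated, and whether gene5268 takes reads from gene5269 was not tested.

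**Figure D2:**
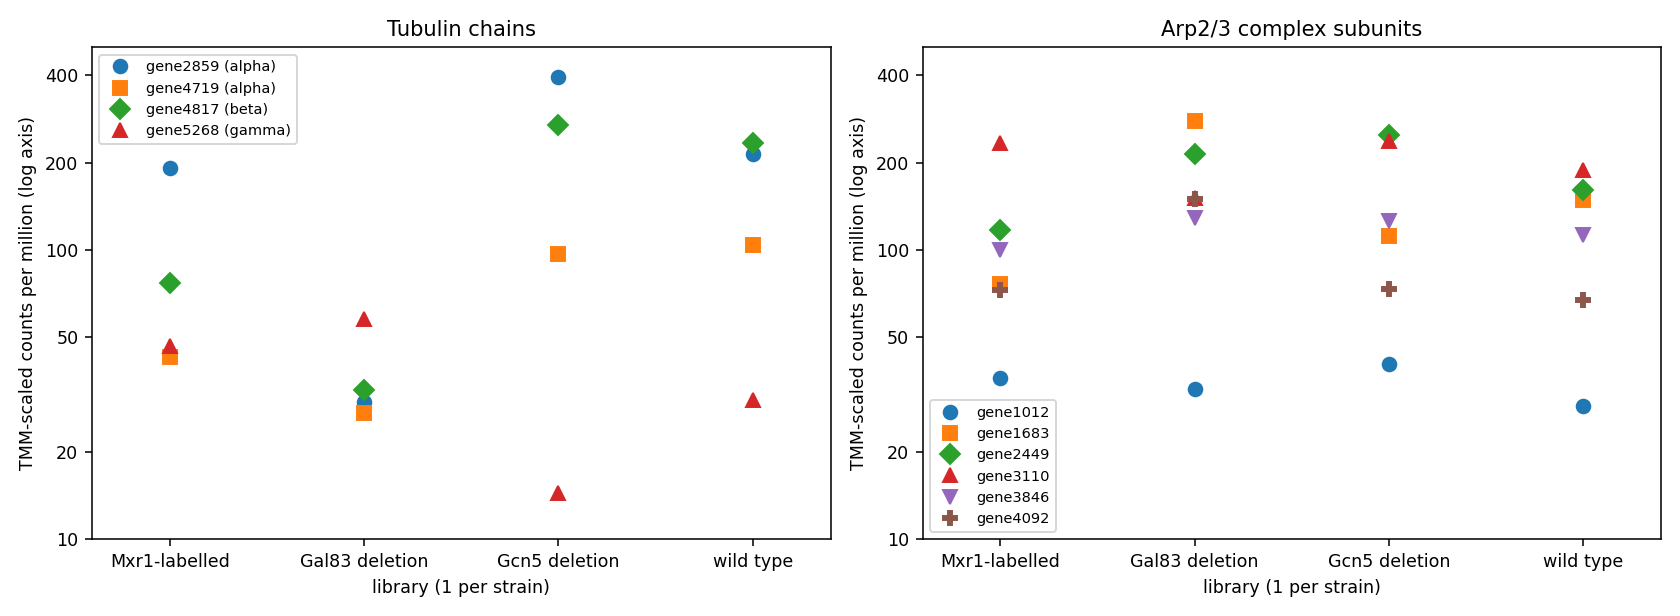
TMM-scaled CPM on a log axis (y) in the 4 libraries (x, 1 library per strain) for the 4 tubulin chains on the left and the 6 Arp2/3 subunits on the right; each symbol is 1 row, and heights compare libraries within a row. The 2 alpha- and the beta-tubulin rows each have their lowest value in the Gal83-deleted library, 27.3 to 32.7 CPM, where gamma-tubulin has its highest, 57.6 CPM, while the Arp2/3 subunits shift in different directions.

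Among the helpers of tubulin, a component of the gamma-tubulin nucleating complex (gene2068) had 277 CPM in the Mxr1-labelled, 30.8 in the Gal83-deleted and 23.0 in the Gcn5-deleted library, against 30.1 in the wild type. The Mxr1-labelled value was 9.18-fold above the wild type (log2 3.20 [3.12 to 3.28]), and the other 3 libraries lay close together. The next row is the mitochondrial carnitine carrier Crc1 (gene2069), which had 281013 counts in the Mxr1-labelled library, against 6862 in the wild type, at log2 6.19. The share of reads from that neighbour in gene2068 was not tested. The other component of the complex (gene2647) was at log2 -0.33, -0.53 and -0.40 in the Mxr1-labelled, Gal83-deleted and Gcn5-deleted libraries.

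Of the 4 folding factors, which bring alpha- and beta-tubulin together, 1 was called in at least 1 library, beside 36.3% of all rows. Tubulin binding cofactor C (gene947) had 68.0 CPM in the Mxr1-labelled, 42.5 in the Gal83-deleted and 24.9 in the Gcn5-deleted library, against 30.2 in the wild type, and was higher in the Mxr1-labelled library (log2 1.17 [1.07 to 1.26]). With total counts it was at log2 0.82 and no longer called. The row after it, a monocarboxylate transporter (gene948), was at log2 2.28, 1.05 and -0.68, again with the signs of its neighbour. The remaining 3 factors, gene590, gene4005 and gene2363, had log2 ratios between -0.62 and 0.58 over the 3 libraries.

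A row described as a tubulin tyrosine ligase associated with P-bodies (gene5280) had 16.4 CPM in the Mxr1-labelled, 27.4 in the Gal83-deleted and 37.6 in the Gcn5-deleted library, against 72.0 in the wild type. It was below the wild type in every deletion library, at 4.37-fold in the Mxr1-labelled (log2 -2.13 [-2.27 to -1.99]) and 2.62-fold in the Gal83-deleted library (log2 -1.39 [-1.49 to -1.29]). In the Gcn5-deleted library it was at log2 -0.94, just short of 2-fold, and it was called lower there with total counts.

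The microtubule-associated protein of the XMAP215 family (gene5114), which speeds growth at microtubule ends, had 31.9 CPM in the Mxr1-labelled, 25.1 in the Gal83-deleted and 34.4 in the Gcn5-deleted library, against 49.2 in the wild type. Its log2 ratios of -0.62, -0.97 and -0.52 all missed 2-fold, although upper-quartile scaling put the Gal83-deleted value past it. A dynein heavy chain row (gene4492), the motor subunit that walks toward microtubule minus ends, had 161 CPM in the Mxr1-labelled, 83.8 in the Gal83-deleted and 78.2 in the Gcn5-deleted library, against 80.8 in the wild type. Only the Mxr1-labelled library was high, at log2 0.998 [0.94 to 1.06], just short of the rule. A dynein light chain row (gene3088) was at log2 0.06, 0.59 and 0.68 in the Mxr1-labelled, Gal83-deleted and Gcn5-deleted libraries.

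Actin itself changed little. The actin row with most wild-type counts of its role group (gene4100) had 1368 CPM in the Mxr1-labelled, 861 in the Gal83-deleted and 1167 in the Gcn5-deleted library, against 958 in the wild type, with log2 ratios of 0.51 [0.49 to 0.53], -0.15 [-0.17 to -0.13] and 0.28 [0.26 to 0.30]. The rows named Actin-1 (gene2178) and actin or actin-like protein (gene994) had log2 ratios between -0.30 and 0.13. Profilin (gene4254), which hands actin monomers to growing ends, was at log2 0.16, -0.15 and 0.35 in the Mxr1-labelled, Gal83-deleted and Gcn5-deleted libraries. The 3 rows of the actin depolymerizing family (gene837, gene3436 and gene5215), to which cofilin belongs, ranged from -0.43 to 0.80. A minor tropomyosin (gene5303), which coats actin cables, was at log2 0.64, -0.07 and 0.71, fimbrin (gene2362), which bundles filaments, at 0.66, 0.82 and 0.49, and the capping protein alpha subunit (gene3075) at 0.24, -0.69 and -0.39. None of these passed 2-fold.

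The Arp2/3 complex is built from subunits that work together, yet its 6 rows did not shift together. Subunit 3 (gene4092) had 72.7 CPM in the Mxr1-labelled, 150.03 in the Gal83-deleted and 73.1 in the Gcn5-deleted library, against 67.2 in the wild type. Only the Gal83-deleted library was high, by 2.23-fold (log2 1.16 [1.10 to 1.22]), and it stood apart, meaning that it was at least 2-fold from each other library while those 3 lay within 1.5-fold. Subunit 5 (gene1683) had 76.1 CPM in the Mxr1-labelled, 278 in the Gal83-deleted and 112 in the Gcn5-deleted library, against 148 in the wild type, at log2 -0.96, 0.91 and -0.41. The 34 kD subunit (gene3110) was at -0.33 in the Gal83-deleted library and 0.30 and 0.33 in the Mxr1-labelled and Gcn5-deleted libraries. Rows gene1012, gene2449 and gene3846 ranged from -0.46 to 0.63, and the activator of the complex (gene1497) was at 0.33, 0.14 and 0.17. With total counts gene1683 was called lower in the Mxr1-labelled and higher in the Gal83-deleted library.

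The 2 formin rows, which build cables, did not pass the rule. The FH2 domain row (gene1607) had 93.8 CPM in the Mxr1-labelled, 42.0 in the Gal83-deleted and 87.3 in the Gcn5-deleted library, against 83.2 in the wild type. Its log2 ratio of -0.99 [-1.07 to -0.90] in the Gal83-deleted library was past 2-fold with DESeq2 or upper-quartile scaling. The other formin (gene4705) was at log2 0.66, -0.24 and 0.21 in the Mxr1-labelled, Gal83-deleted and Gcn5-deleted libraries. A polarisome component (gene3462), which holds formins at the growing tip, had 34.1 CPM in the Mxr1-labelled, 29.0 in the Gal83-deleted and 50.4 in the Gcn5-deleted library, against 59.0 in the wild type. It passed the rule narrowly in the Gal83-deleted library (log2 -1.02 [-1.13 to -0.92]) and was at -0.89 there with total counts. An actin- and formin-interacting protein (gene2654) was at log2 -0.23, -0.18 and 0.26.

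The widest change of all 81 rows was in a pair of adjacent rows, both described as actin patches distal protein 1, a protein named in Saccharomyces cerevisiae for its effect on where actin patches lie. Row gene484 had 161 CPM in the Mxr1-labelled, 32.6 in the Gal83-deleted and 1092 in the Gcn5-deleted library, against 909 in the wild type. It was 5.64-fold lower in the Mxr1-labelled (log2 -2.50 [-2.54 to -2.45]) and 27.9-fold lower in the Gal83-deleted library (log2 -4.80 [-4.88 to -4.72]), and at log2 0.26 in the Gcn5-deleted library. Row gene485 had 228 CPM in the Mxr1-labelled, 76.3 in the Gal83-deleted and 63.4 in the Gcn5-deleted library, against 62.8 in the wild type. Only its Mxr1-labelled value was high, by 3.63-fold (log2 1.86 [1.80 to 1.92]), and it stood apart from the other 3.

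The balance within this pair was turned over. Of the joint counts, gene484 held 41.4% in the Mxr1-labelled library (40.5 to 42.3), 29.9% in the Gal83-deleted library (28.5 to 31.4) and 94.5% in the Gcn5-deleted library (94.3 to 94.8), against 93.5% in the wild type (93.3 to 93.8). On the other side of gene484 lies a membrane protein for ammonia export (gene483), which was at log2 6.95 in the Mxr1-labelled library, opposite in sign to gene484.

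Of the 10 patch and cortical rows, which include gene484 and gene485, 2 were higher and 1 lower in the Gal83-deleted library, beside 11.0% and 10.7% of all rows. A component of the cortical actin cytoskeleton (gene3714) had 78.2 CPM in the Mxr1-labelled, 179 in the Gal83-deleted and 42.6 in the Gcn5-deleted library, against 61.3 in the wild type, at log2 1.54 [1.48 to 1.604] in the Gal83-deleted library. The row before it, a homeodomain regulator (gene3713), was at log2 -1.01, 2.52 and 2.188 in the Mxr1-labelled, Gal83-deleted and Gcn5-deleted libraries. It was higher in the Gal83-deleted library, as gene3714 was, and also in the Gcn5-deleted library, where gene3714 was at -0.53. Whether reads were shared between these rows was not tested. Actin patch protein 1 (gene5193) had 68.1 CPM in the Mxr1-labelled, 133 in the Gal83-deleted and 62.2 in the Gcn5-deleted library, against 51.8 in the wild type, at log2 1.36 [1.29 to 1.43] in the Gal83-deleted library.

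A further pair of rows of like description, a transmembrane actin-binding protein (gene4362 and gene4437), differed by 1.44% to 4.59% in counts within each library although they are not adjacent. Their log2 ratios were -0.23 and -0.28 in the Mxr1-labelled, 0.50 and 0.47 in the Gal83-deleted and -0.33 and -0.35 in the Gcn5-deleted library. Counts this alike may be reads of 1 gene assigned to both, which was not tested, so the pair is best read as 1 measurement. The other cortical rows, gene2660, gene3402, gene3665 and gene5195, ranged from -0.87 to 0.71.

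**Figure D3:**
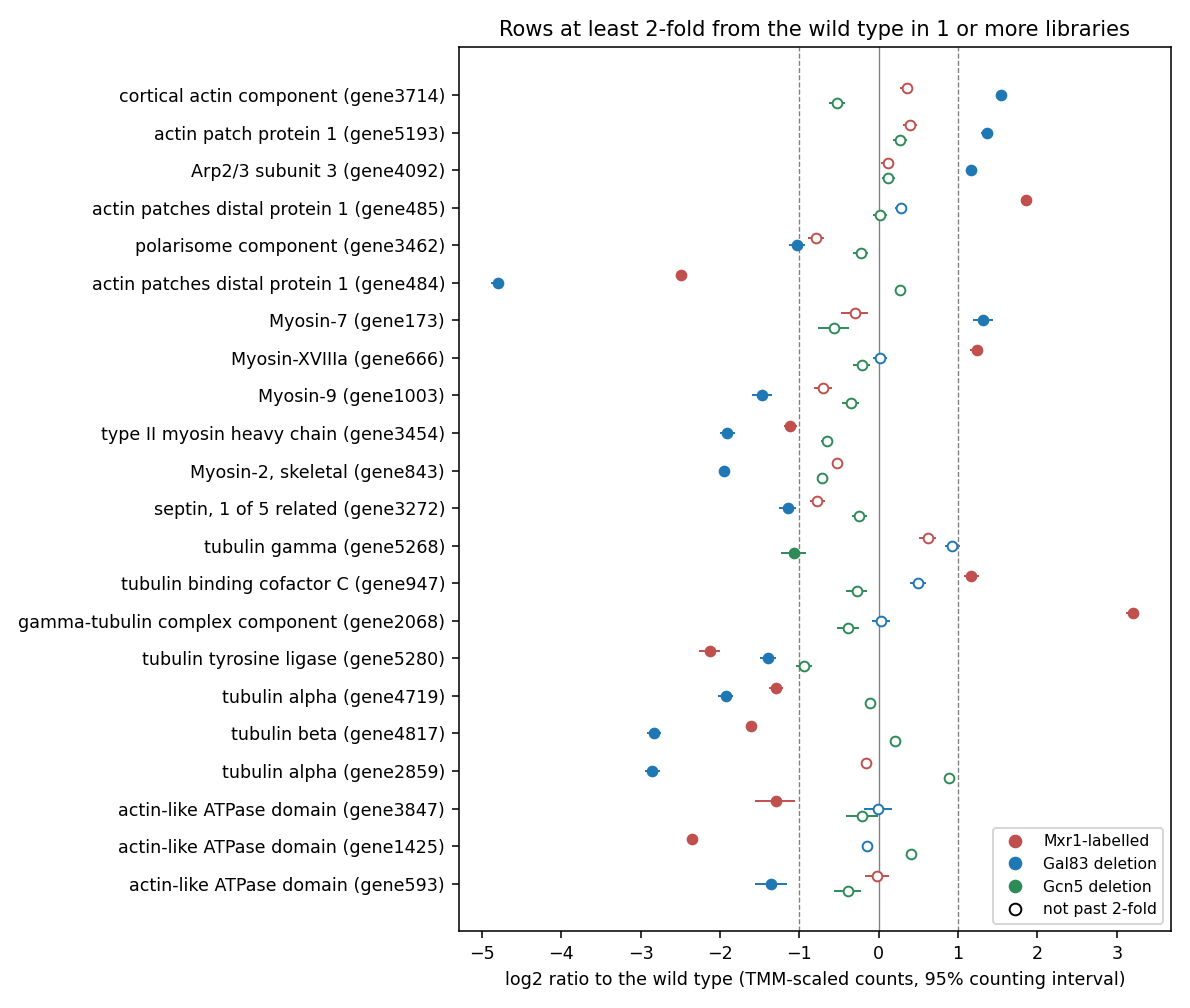
Log2 ratios to the wild type (x axis) with exact 95% counting intervals for rows at least 2-fold from the wild type in 1 or more deletion libraries (y axis), ordered by role; 1 of the 23 such rows is not drawn. Filled points passed the rule and open points did not; the Gcn5-deleted library has 1 filled point, gamma-tubulin (gene5268), and the widest pair of values belongs to actin patches distal protein 1 (gene484).

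Of the 14 rows of myosins and their partners, 1 was higher and 1 lower in the Mxr1-labelled library (7.97% and 10.3% of all rows) and 1 higher and 3 lower in the Gal83-deleted library (11.0% and 10.7%). Of the 2 septin rows, 0 were called in the Mxr1-labelled and 1 was lower in the Gal83-deleted library. The type II myosin heavy chain (gene3454), the motor of the contractile ring, had 51.0 CPM in the Mxr1-labelled, 29.5 in the Gal83-deleted and 70.2 in the Gcn5-deleted library, against 111 in the wild type. It was called lower in the Mxr1-labelled (log2 -1.12 [-1.20 to -1.04]) and the Gal83-deleted library (log2 -1.91 [-2.0 to -1.81]), and was at -0.66 in the Gcn5-deleted library. A septin, described as 1 of 5 related ones (gene3272), had 36.6 CPM in the Mxr1-labelled, 28.2 in the Gal83-deleted and 52.8 in the Gcn5-deleted library, against 62.4 in the wild type, and was lower in the Gal83-deleted library (log2 -1.15 [-1.25 to -1.05]). Septin-4 (gene3284) was at log2 -0.23, -0.23 and -0.28. An essential protein of the contractile actomyosin ring (gene587) had 48.6, 55.5 and 50.4 CPM in the Mxr1-labelled, Gal83-deleted and Gcn5-deleted libraries, against 90.2 in the wild type; its log2 ratios of -0.89, -0.70 and -0.84 did not pass the rule, and with total counts it was called lower in the Mxr1-labelled and Gcn5-deleted libraries. Since the 3 comparisons share the wild-type library, a high wild-type value lowers all 3 ratios of a row at the same time.

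In the Gal83-deleted library 3 of the 14 rows of myosins and their partners were lower, beside 10.7% of all rows. Of these 3, 2 are named after animal myosins. The row named Myosin-2, skeletal muscle (gene843) had 226 CPM in the Mxr1-labelled, 84.1 in the Gal83-deleted and 198 in the Gcn5-deleted library, against 324 in the wild type, and was at log2 -1.94 [-2.0 to -1.89] in the Gal83-deleted library. The row named Myosin-9 (gene1003) had 30.1, 17.8 and 38.5 CPM in the Mxr1-labelled, Gal83-deleted and Gcn5-deleted libraries, against 49.0 in the wild type, and was at log2 -1.47 [-1.59 to -1.34] in the Gal83-deleted library. Both were lowest there and below the wild type in all 3.

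By contrast, 1 of the 14 was higher in the Mxr1-labelled and 1 in the Gal83-deleted library (7.97% and 11.0% of all rows). Both are named after animal myosins and stood apart there. The row named Myosin-XVIIIa (gene666) had 105 CPM in the Mxr1-labelled, 45.2 in the Gal83-deleted and 38.6 in the Gcn5-deleted library, against 44.8 in the wild type (log2 1.23 [1.16 to 1.31] in the Mxr1-labelled library, and 0.88 with total counts). The row named Myosin-7 (gene173) had 13.3 CPM in the Mxr1-labelled, 40.6 in the Gal83-deleted and 11.0 in the Gcn5-deleted library, against 16.3 in the wild type (log2 1.31 [1.19 to 1.44] in the Gal83-deleted library). The rows on either side of gene173, gene172 and gene174, were at log2 1.24 and 1.17 in the Gal83-deleted library.

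The class V myosin MYO2 (gene1558), the carrier of secretory vesicles along cables, had 253 CPM in the Mxr1-labelled, 98.5 in the Gal83-deleted and 207 in the Gcn5-deleted library, against 172 in the wild type. Its log2 ratios were 0.56, -0.80 and 0.27. The myosin row with most wild-type counts (gene5068) was at log2 -0.25, -0.43 and 0.39, and a partner of the myosin tail (gene3423) at 0.37, -0.18 and 0.30. The rows gene2565, gene3787, gene4179 and gene4709 ranged from -0.56 to 0.89.

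Endocytosis and eisosome rows did not pass the rule in any deletion library: 0 of 8 were called in each of the 3, beside 18.3%, 21.6% and 9.1% of all rows in the Mxr1-labelled, Gal83-deleted and Gcn5-deleted libraries. With 8 rows, a count of 0 is not read as a difference from those shares. A key endocytic protein (gene2340), which scaffolds early endocytic sites, had 908 CPM in the Mxr1-labelled, 594 in the Gal83-deleted and 965 in the Gcn5-deleted library, against 594 in the wild type. Its log2 ratios were 0.61, 0.00 and 0.70. A membrane protein described as localized to mitochondria and eisosomes (gene4040) was the row of this group with most wild-type counts. It had 781, 1023 and 1156 CPM in the Mxr1-labelled, Gal83-deleted and Gcn5-deleted libraries, against 781 in the wild type. The group's median log2 ratio was 0.22, -0.02 and 0.26, within a range of -0.45 to 0.70. Part of the Pan1 complex (gene3596) was at 0.06, -0.25 and 0.56, and the End3 row (gene5298) at -0.45, -0.04 and 0.26. The remaining 4 rows, an epsin-like protein (gene1077), a phosphatase (gene1884), a peripheral membrane protein (gene2992) and an F-box protein of plasma membrane recycling (gene4456), ranged from -0.40 to 0.65.

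Among the peripheral rows, 3 of the 4 with an actin-like ATPase domain were called in at least 1 library, beside 36.3% of all rows. With 4 rows, that count is not read as a difference from this share. Row gene1425 had 274 CPM in the Mxr1-labelled, 1263 in the Gal83-deleted and 1868 in the Gcn5-deleted library, against 1404 in the wild type. Its Mxr1-labelled value was 5.11-fold below the wild type (log2 -2.35 [-2.39 to -2.32]) and stood apart. Row gene3847 also stood apart as lower in that library, with 158 counts there, against 697 in the wild type (log2 -1.30 [-1.56 to -1.05]). Row gene593 was lower in the Gal83-deleted library, with 271 counts, against 1002 in the wild type (log2 -1.35 [-1.55 to -1.16]). The other 8 peripheral rows had log2 ratios from -0.52 to 0.89. What the 3 called proteins do cannot be read from the fold name. Without the 11 peripheral rows, 70 were left. Of these, 4 were higher and 5 lower in the Mxr1-labelled, 5 and 10 in the Gal83-deleted and 0 and 1 in the Gcn5-deleted library. That is 12.9%, 21.4% and 1.4%, beside 18.3%, 21.6% and 9.1% of all rows.

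Over the whole list, 7 of 81 rows stood apart in 1 library, or 8.6%, beside 6.81% of all rows. The libraries involved were the Mxr1-labelled (3 higher, gene485, gene666 and gene2068, and 2 lower, gene1425 and gene3847) and the Gal83-deleted (2 higher, gene173 and gene4092). Over all rows the shares were 1.14% higher and 0.83% lower for the Mxr1-labelled library, and 2.25% higher for the Gal83-deleted library. For the other kinds 0 of the 81 rows stood apart, beside 1.61% of all rows with the Gal83-deleted library lower, 0.406% and 0.221% with the Gcn5-deleted library higher and lower, and 0.277% and 0.0738% with the wild type higher and lower. The Gal83-deleted library was the lowest of the 4 for 33 rows (40.7%), beside 29.9% of all rows. The Gcn5-deleted library was the highest for 25 (30.9%), beside 21.3%. Fewer rows had the Mxr1-labelled library lowest (14, or 17.3%, beside 27.1%) or the Gal83-deleted library highest (19, or 23.5%, beside 31.2%). Such ranks ignore the size of a difference, and 61.7% of the 81 rows lay within 2-fold across the libraries. Of the 23 rows called in at least 1 library (28.4%, beside 36.3% of all rows), 5 were lower in the Mxr1-labelled as well as the Gal83-deleted library: gene484, gene3454, gene4719, gene4817 and gene5280. How many of all rows were lower in both was not counted, and both ratios share the wild-type library.

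Adjacent rows often moved with a called row, in this list as in the table. Of the 28 called values in the 3 comparisons, 10 (35.7%) had a neighbouring row called in the same direction in the same library, beside 39.6% of all called values. Among them were gene947, gene1425, gene2068 and gene4817 in the Mxr1-labelled library, gene173, gene593, gene3714 and gene5280 in the Gal83-deleted library, and gene5268 in the Gcn5-deleted library. Whether reads were shared between such rows was not tested.

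**Figure D4:**
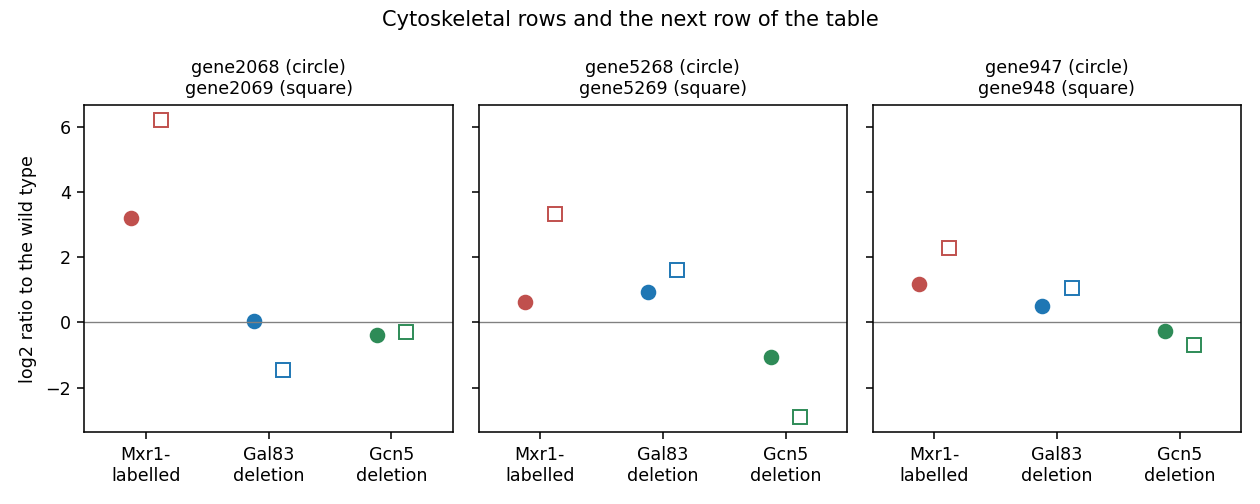
Log2 ratios to the wild type (y axis) in the 3 deletion libraries (x axis) for 3 called rows (filled circles) and the row after each in the table (open squares), picked after their values were seen. The gamma-tubulin complex row (gene2068) and gamma-tubulin (gene5268) sit beside rows with larger ratios of the same sign in the library where they were called, 6.19 and -2.92.

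Partners of these genes were taken from a separate list of 57 rows, by description, among them clathrin and its adaptors, epsins, dynamins and dynactin, prefoldin, and bud-site and polarity proteins. In the Mxr1-labelled library 3 were higher and 4 lower, in the Gal83-deleted library 4 higher and 6 lower, and in the Gcn5-deleted library 2 higher and 0 lower, or 12.3%, 17.5% and 3.5%, beside the same shares of all rows as above (18.3%, 21.6% and 9.1%). The median log2 ratio was 0.13, -0.05 and 0.03.

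For microtubules, dynactin subunit 1 is a part of the complex that links dynein to cargo. A row of that name (gene4315) had 82.5 CPM in the Mxr1-labelled, 98.9 in the Gal83-deleted and 128 in the Gcn5-deleted library, against 228 in the wild type. It was called lower in the Mxr1-labelled (log2 -1.46) and Gal83-deleted (log2 -1.20) libraries. Another row of that name (gene4985) was at log2 -0.88, -1.05 and -0.59 in the same order, and was called lower in the Gal83-deleted library. A potential dynactin-like protein (gene3231) was at -0.59, -0.97 and -0.85 and was not called. Prefoldin, which passes new actin and tubulin chains to the folding chaperonin, had 0 of 6 rows called in each library. Of all rows, 18.3%, 21.6% and 9.1% were called in the Mxr1-labelled, Gal83-deleted and Gcn5-deleted libraries. With 6 rows, a count of 0 is not read as a difference from those shares.

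For endocytosis, Epsin-2 (gene279), a clathrin adaptor at the plasma membrane, had 80.6 CPM in the Mxr1-labelled, 406 in the Gal83-deleted and 96.9 in the Gcn5-deleted library, against 87.9 in the wild type. It was 4.62-fold higher in the Gal83-deleted library and near the wild type in the other 2. The other epsin-like partner rows, gene1568 and gene4567, were at log2 -0.12 and -0.05 in the Gal83-deleted library. A synaptojanin-like phosphatase (gene2598), which acts on the lipid that recruits coat proteins, was at log2 1.34 in the Gal83-deleted library. Of 15 clathrin and adaptor rows, 1 was lower in the Mxr1-labelled and 1 in the Gal83-deleted library (10.3% and 10.7% of all rows). These were alpha-adaptin of AP-2 (gene2516, log2 -1.03) and a medium subunit of AP-1 (gene928, log2 -1.10), in that order. A BAR domain protein of Golgi vesicles (gene5228) was at log2 -1.09 in the Gal83-deleted library.

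Of 11 bud-site and polarity rows, 1 was higher and 2 lower in the Mxr1-labelled library (7.97% and 10.3% of all rows), and 1 higher and 2 lower in the Gal83-deleted library (11.0% and 10.7%). The plasma membrane protein needed for axial budding (gene2285) had 20.6 CPM in the Mxr1-labelled, 18.9 in the Gal83-deleted and 53.9 in the Gcn5-deleted library, against 64.1 in the wild type, at log2 -1.64 and -1.76 in the libraries where it was called. The bud-site protein gene3995 was at log2 -1.49 and -1.43 in those libraries, while a row of like description (gene801) was not called, at 0.26 and -0.49. The exchange factor for Rsr1 (gene3634), a bud-site GTPase, was higher in the Mxr1-labelled library, at log2 1.47, as was a vacuolar transporter chaperone also named a negative regulator of CDC42 (gene5104, log2 1.09). In the Gal83-deleted library an endosomal polarity protein (gene4936) was at log2 1.19. Bud site selection protein 22 (gene2487) was higher in the Gcn5-deleted library, with 60.8 CPM there, against 29.8 in the wild type (log2 1.03).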

How the data were processed

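RNA of 4 strains was sequenced, 1 library each, after ribosomal RNA was removed with a bacterial RiboMinus kit, per the labels' protocols. Tools listed in the submitters' processing notes, with no role given, are DESeq2, featureCounts (version 1.6.4), Bowtie2, fastp (version 0.19.6) and bcl2fastq (version 2.19.0.316). Which genome build, annotation and strand setting were used is not given in the sources used here. Deposited values are raw counts per annotated row, with no normalization by the authors.

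Rows were selected by words in the product description. Their genes and the role lists were chosen with earlier results of these data known. Rows with a mean count of at least 20 were kept (5420 of 5427, and all 81 selected rows), and libraries were scaled by TMM over them (edgeR 4.0.16, R 4.3.3). Log2 ratios of each deletion library over the wild-type one used counts with 0.5 added, with the exact 95% Clopper-Pearson interval of the count ratio. With 1 library per strain no test between strains was possible. Rows were named if past 2-fold with an interval excluding equality, if standing apart in 1 library, as core chains by kind, or as the row with most wild-type counts of a role. Partner rows were named if past the rule, at most 5 per comparison and direction, or if like in description to a named one. Not every row that meets this rule is reported here. In simulated libraries with counting noise only, 200 of 5420 rows changed by more than 2-fold were recovered at 100.0% in each comparison; that checks the computation only. Alternatives were total counts, DESeq2 1.42.0 and upper-quartile scaling, other filters, 5 added to each count, 1.5-fold and 4-fold rules, and narrower lists. Python 3.11.15, pandas 2.3.3, scipy 1.17.1 and matplotlib 3.10.9 were used. The reference gene table at hand, of another strain, matched 0 locus tags, so lengths, coordinates and sequences were not used here. Counts cover all selected rows.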

Additional observations from a re-analysis of the deposited data

How the results depend on the processing

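Of the choices tried, the scaling and the fold of the rule moved the counts; other filters, 5 added to each count, leaving out split or shared rows (0 of the 81 were such) and, chosen after seeing the data, leaving out 1 row of the near-identical pair moved no count. With total counts the rows called were 2 higher and 13 lower in the Mxr1-labelled, 8 higher and 10 lower in the Gal83-deleted and 0 higher and 4 lower in the Gcn5-deleted library, and the medians were -0.29, 0.12 and -0.22, where the median of all rows was -0.36, 0.14 and -0.34. The share of all rows called with total counts was not counted. Upper-quartile scaling put the Mxr1-labelled median at -0.056, where all rows were at -0.12. A 1.5-fold rule called 15 higher and 15 lower, 10 and 17, and 8 and 6 in the same order of libraries; a 4-fold rule called 1 and 3, 1 and 3, and 0 and 0. No called value changed sign under any scaling, filter or added count tried. Gene666, gene947 and gene3462 lost their call with total counts, and without the 11 peripheral rows 2 fewer were lower in the Mxr1-labelled and 1 fewer in the Gal83-deleted library. At this depth counting error is small; the error that limits every statement, the spread between cultures, was not measured. No paired analysis was possible because each strain has 1 library, and for the same reason no replicate could be left out.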
